A study of Homo sapiens with 6 samples.

Results

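The 10 genes described here are transcriptional targets of the tumor suppressor p53, followed in K562 cells, a human chronic myeloid leukemia line that carries the Bcr-Abl fusion and lacks functional p53. They are MDM2, CDKN1A, GDF15, SESN1, ZMAT3, FDXR, RRM2B, XPC, DDB2 and TP53INP1, taken from a fixed list of names and not for their values in these libraries. All 10 were found among the 12486 genes of the deposited table, and all 10 passed the minimum mean of 0.1 FPKM (fragments per kilobase of transcript and per size of the library). Total RNA was sequenced from cells with a stable, lentivirally delivered shRNA, directed in 3 libraries against luciferase as the control (sh-luc) and in the other 3 against a long noncoding RNA. The labels call this RNA lncRNA-up91 and the study calls it lncRNA-IUR1, and the knockdown is named sh-IUR1 below. In each group the labels leave 1 library unnumbered and number the others r1 and r2. The knockdown rests on 1 shRNA sequence, the level of lncRNA-IUR1 itself was not analysed here, and no imatinib treatment is given for these libraries. The methods describe independent groups of cells, whereas the labels do not say whether the libraries came from separate cultures. If they did not, the p-values measure technical spread.

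In normal cells p53 is a transcription factor held at a low level by MDM2, and it accumulates after DNA damage and other stress. It binds an element in or near its target genes and raises their transcription, which halts the cell cycle, promotes DNA repair, alters metabolism or kills the cell. Several of these genes also respond to other transcription factors, and GDF15 and CDKN1A are known to respond to the integrated stress response. In cells that lack functional p53 their levels therefore cannot be read as p53 activity. Protein of p53 was not measured in these libraries, and what sets the levels was not tested.

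Matches to the element in these genes are shown first, because p53 reaches its targets through such elements. Binding was not measured, and a match is a description of letters only. The consensus has 2 arms of 10 bases, each made of 3 purines, a C, 2 bases that are A or T, a G and 3 pyrimidines, and it reads alike on both strands. The 10 kb around the start of the canonical GENCODE transcript (5000 bases on each side, hg38) were searched for 20-base matches with no spacer between the arms and at most 2 mismatches. RRM2B and TP53INP1 were not searched. The matches are printed 5′ to 3′ on the strand of the gene, with bases that fit the consensus in capitals and mismatches in lower case.
ZMAT3, chr3:179070188-179070207, minus strand, intron 1, first base 1602 from the start: AAACAAGTCCAGACATGCCT
DDB2, chr11:47214969-47214988, plus strand, spanning the start, first base at -5: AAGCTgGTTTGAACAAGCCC
MDM2, chr12:68808923-68808942, plus strand, intron 1, first base at 746: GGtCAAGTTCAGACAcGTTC
MDM2, chr12:68811195-68811214, plus strand, intron 2, first base at 3018: GGACTTGCCTAGtCTTaTCT
CDKN1A, chr6:36676449-36676468, plus strand, upstream of the start, first base at -2265: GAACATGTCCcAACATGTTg
CDKN1A, chr6:36677331-36677350, plus strand, upstream of the start, first base at -1383: GAAgAAGaCTGGGCATGTCT
GDF15, chr19:18385308-18385327, plus strand, upstream of the start, first base at -850: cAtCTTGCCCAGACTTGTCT

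Of the 8 genes searched, 5 held at least 1 such match, and 2648 of 11923 tested genes with a canonical start (22.2%) did so. With at most 1 mismatch the genes were ZMAT3 and DDB2, 2 of 8, against 1.81% of the tested genes. ZMAT3 held the only exact match among them, and 15 of the 11923 genes (0.126%) held one. The distal CDKN1A match also overlaps an exon of another transcript of the same gene. SESN1, XPC and FDXR held no match of this kind in this window, which says only that these letters are not there.

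**Figure D1:**
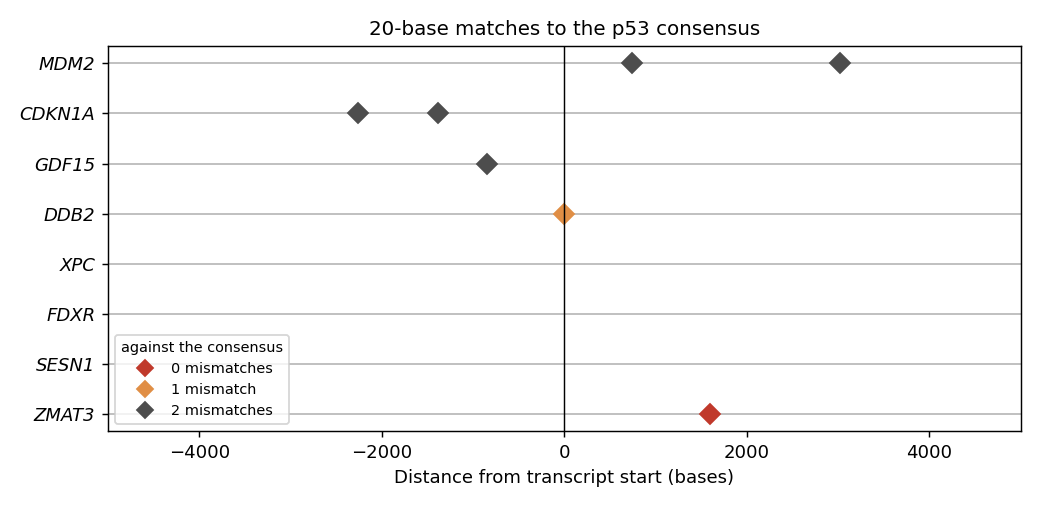
Position of each 20-base match to the p53 consensus, in bases from the start of the canonical transcript (negative values lie before it), for the 8 genes searched. The exact match of ZMAT3 lies 1602 bases past the start, the match of DDB2 lies at the start, and the most distant match before a start is that of CDKN1A at -2265.

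The RefSeq promoter windows (GRCh38.p14, 250 bases before to 50 after each start) were searched as well, here with 0 to 13 bases between the arms. Windows were found for 8 of the 10 genes. With at most 2 mismatches in all, DDB2, MDM2, FDXR and SESN1 held a match, 4 of 8, against 7.98% of 9939 tested genes with a window and 9.53% of all 27305 genes with one. DDB2 held an exact match with a spacer of 1 base, shown here with the spacer in lower case because it was the only exact match among these windows. It overlaps the DDB2 match given above, and the promoter match of MDM2 is its intron 1 match, which lies before the start of other MDM2 transcripts. The FDXR match, with 10 bases between the arms, is shown because the closer search held none for this gene, and here capitals mark the arms, of which 2 bases are mismatches.
DDB2, chr11:47214979-47214999, plus strand, first base at 5: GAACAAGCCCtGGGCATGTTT
FDXR, chr17:74872996-74873025, minus strand, first base at -31: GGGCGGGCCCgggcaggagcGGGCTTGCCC

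In these cells the 10 genes covered a wide range of levels. On the FPKM scale, which corrects for transcript length, the mean over the 6 libraries was 124 for GDF15, 29.6 for FDXR, 14.6 for XPC, 12.2 for DDB2 and 10.1 for MDM2. It was 6.10 for CDKN1A, 5.71 for SESN1, 4.36 for RRM2B, 2.69 for ZMAT3 and 1.01 for TP53INP1. In this order the ranges over the libraries met for 3 pairs of neighbours, namely XPC with DDB2, DDB2 with MDM2, and CDKN1A with SESN1. The other neighbours were apart in every library. Among all genes of the table, GDF15 stood at percentile 94.5 of the mean level, MDM2 at percentile 49.6 and TP53INP1 at percentile 14.9.

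None of the 10 genes was called between sh-IUR1 and sh-luc cells. The adjusted p-values from limma (Benjamini-Hochberg over all 12276 genes tested) were between 0.930 and 0.979. Over all genes tested 0% were called at an adjusted p under 0.05, so the result of the 10 genes is that of the whole table. At an unadjusted p under 0.05 there were 0 of the 10 genes, and 2.65% of all genes. Groups without overlap were found for 0 of the 10 genes, and for 7.07% of all genes. The fitted log2 fold change was positive for 9 of the 10, against 58% of all genes. Their median was 0.083 on the log2(FPKM + 1) scale, and the median over all genes was 0.019. Exact permutation tests of mean FPKM (two-sided) gave p-values between 0.2 and 0.8, where 3 libraries against 3 allow 0.1 at the smallest.

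Several of these differences depended on 1 library. The unnumbered sh-luc library was the lowest of the 6 for CDKN1A, GDF15, FDXR, XPC and DDB2, that is for 5 of the 10 genes and for 38.4% of all genes tested. It also held the lowest value of 24 of 24 tested genes of the integrated stress response, a list of 25 genes such as DDIT3, ATF3 and ASNS. The summed FPKM of that list was 1525 in the unnumbered sh-luc library, 2916 in sh-luc r1 and 2615 in sh-luc r2. It was 2919, 3256 and 2429 in the unnumbered, r1 and r2 libraries of sh-IUR1, and no gene of the list was at 0. Without the unnumbered sh-luc library, 8 of the 10 log2 fold changes were positive, against 6467 of 12276 over all genes. The median in that fit was 0.029 for the 10 genes and 0.0047 over all genes. Without sh-luc r1 the median of the 10 was 0.13. With the unnumbered sh-luc library left out, the log2 fold changes of GDF15, CDKN1A, DDB2, FDXR and ZMAT3 moved toward 0. That of XPC turned negative in this fit. Those of SESN1, RRM2B, TP53INP1 and MDM2 changed little, to 0.089, 0.094, 0.077 and 0.020. Whether the stress genes and the p53 targets moved for the same reason was not tested.

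**Figure D2:**
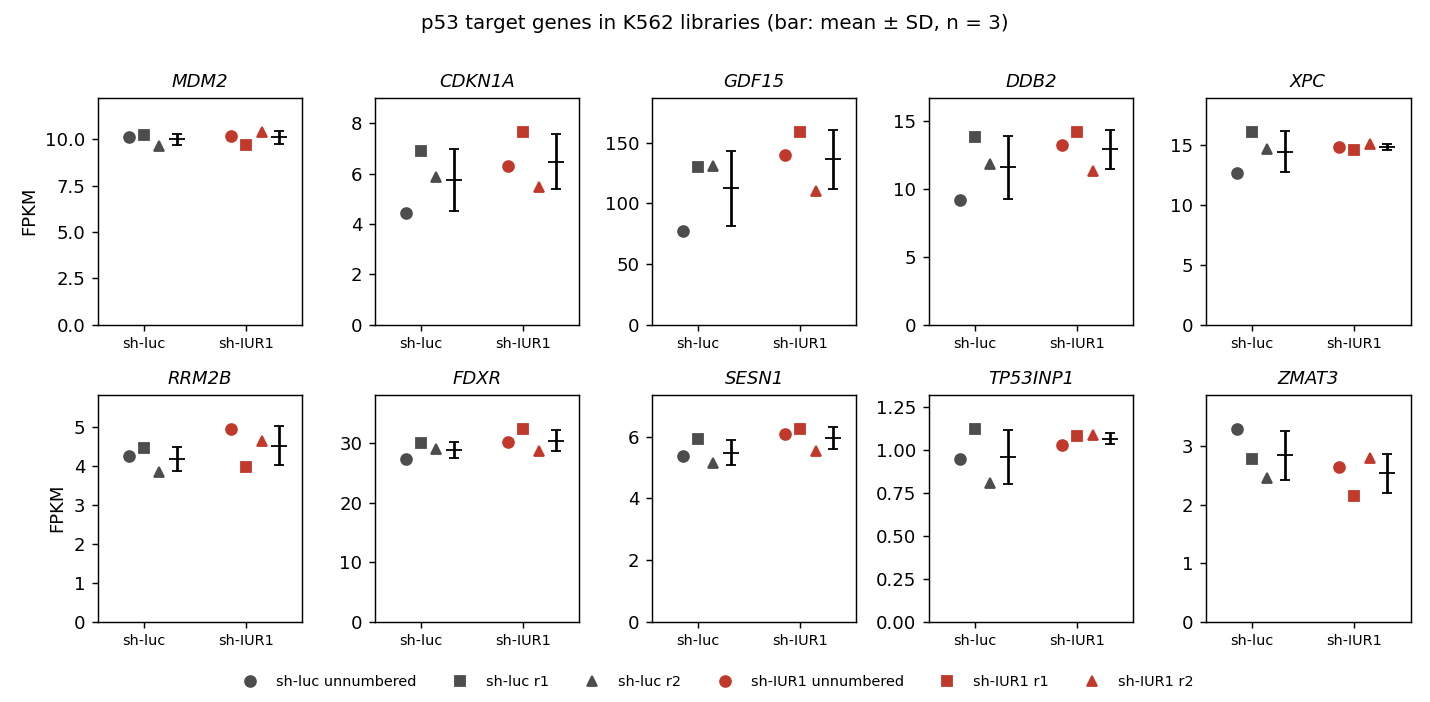
FPKM of each p53 target gene in each library (symbols), on a linear axis from 0, with the mean ± SD of 3 libraries beside each group. The sh-luc and sh-IUR1 libraries overlap for all 10 genes, and the unnumbered sh-luc library (gray circle) is the lowest for CDKN1A, GDF15, DDB2, XPC and FDXR.

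MDM2 encodes the ubiquitin ligase that targets p53 for degradation, and its own induction by p53 closes a negative feedback loop. MDM2 (chr12:68808172-68850686, GRCh38.p14) had 10.10, 10.25 and 9.65 FPKM in sh-luc, in the order unnumbered, r1 and r2 that is kept below, and 10.20, 9.72 and 10.38 FPKM in sh-IUR1 libraries. The 6 values lay close together, with a coefficient of variation of 2.96%, the smallest among the 10 genes. The SD was 0.312 FPKM in sh-luc and 0.341 FPKM in sh-IUR1 cells (n = 3 in each group), and the ratio of the means was 1.01. The log2 fold change was 0.013 with a standard error of 0.072 and a 95% interval from -0.15 to 0.17 (limma, adjusted p = 0.979), and it was negative, at -0.0060 and -0.014, with median-ratio scaling and quantile normalization. MDM2 shares 16.3% of its exon bases with exons of 3 other genes, a pseudogene on the same strand among them, and the strand setting of the counting is not given in the sources used here.

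CDKN1A encodes p21, the inhibitor of cyclin-dependent kinases through which p53 halts the cell cycle. CDKN1A (chr6:36676463-36687332) was at 4.43, 6.89 and 5.88 FPKM in sh-luc and at 6.30, 7.64 and 5.47 FPKM in sh-IUR1 libraries. The lowest value was that of the unnumbered sh-luc library, which was 0.694 times the mean of the other sh-luc libraries. The range within sh-luc, 2.46 FPKM, was larger than the difference between the group means, 0.737 FPKM. The log2 fold change was 0.16 (standard error 0.15, 95% interval from -0.17 to 0.48, adjusted p = 0.930 from limma), and it was 0.0097 without the unnumbered sh-luc library, 0.046 without sh-IUR1 r1, 0.26 without sh-IUR1 r2 and 0.28 without sh-luc r1. No exon of CDKN1A is shared with another gene.

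GDF15 encodes a secreted cytokine of the TGF-β family that is released by stressed cells. GDF15 (chr19:18386158-18389176) was at 76.89, 129.76 and 130.40 FPKM in sh-luc and at 139.81, 158.47 and 110.02 FPKM in sh-IUR1 libraries. Apart from the unnumbered sh-luc library all values were above 110 FPKM, and sh-IUR1 r2 was below both numbered sh-luc libraries. The means were 112 ± 30.7 FPKM in sh-luc and 136 ± 24.4 FPKM in sh-IUR1 cells (SD, n = 3 in each group), a ratio of 1.21. The log2 fold change, 0.30, had the largest size among the 10 genes (standard error 0.19, 95% interval from -0.13 to 0.73, adjusted p = 0.930 from limma). Without the unnumbered sh-luc library it was 0.049, and the ratio of the means was 1.05. It was 0.18 without sh-IUR1 r1, and 0.42, 0.43 and 0.44 without sh-luc r1, sh-luc r2 and sh-IUR1 r2. In fold terms on the FPKM + 1 scale, the interval over all 6 libraries ran from 0.911 to 1.66.

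DDB2 and XPC encode the damage sensors that start global genome nucleotide excision repair, DDB2 at ultraviolet photolesions and XPC at distorted DNA. DDB2 (chr11:47214454-47239217) was at 9.15, 13.78 and 11.78 FPKM in sh-luc and at 13.20, 14.14 and 11.29 FPKM in sh-IUR1 libraries. XPC (chr3:14145147-14178601) was at 12.62, 16.05 and 14.65 FPKM in sh-luc and at 14.84, 14.59 and 15.04 FPKM in sh-IUR1 libraries. For both genes the unnumbered sh-luc library was the lowest, at 0.716 times the mean of the other sh-luc libraries for DDB2 and 0.822 times for XPC. The 3 sh-IUR1 values of XPC lay within 0.45 FPKM of each other, and the sh-luc values spread over 3.43 FPKM. The log2 fold change of DDB2 was 0.15 (standard error 0.13, 95% interval from -0.14 to 0.45, adjusted p = 0.930 from limma) and that of XPC was 0.041 (standard error 0.088, 95% interval from -0.16 to 0.24, adjusted p = 0.954 from limma). Without the unnumbered sh-luc library they were 0.0085 and -0.046, and without sh-luc r1 they were 0.28 and 0.12. DDB2 was at 0.089 without sh-IUR1 r1 and at 0.24 without sh-IUR1 r2. Exons of an antisense RNA and of another gene on the opposite strand cover 30% of the XPC exon bases, the highest share among the 10 genes, and DDB2 shares none.

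RRM2B encodes p53R2, the small ribonucleotide reductase subunit that supplies deoxynucleotides for repair and for mitochondrial DNA outside S phase. RRM2B (chr8:102204501-102238961) was at 4.25, 4.47 and 3.86 FPKM in sh-luc and at 4.94, 3.97 and 4.65 FPKM in sh-IUR1 libraries. The groups overlapped, since sh-IUR1 r1 was below the unnumbered and r1 libraries of sh-luc. The log2 fold change was 0.086 (standard error 0.094, 95% interval from -0.12 to 0.30, adjusted p = 0.930 from limma). It was 0.031 without the unnumbered sh-IUR1 library, 0.039 without sh-luc r2, 0.16 without sh-IUR1 r1 and 0.028 with quantile normalization.

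FDXR, SESN1 and TP53INP1 link p53 to metabolism. FDXR encodes ferredoxin reductase, which passes electrons to ferredoxins in mitochondria. FDXR (chr17:74862497-74872994) was at 27.30, 30.02 and 29.07 FPKM in sh-luc and at 30.22, 32.28 and 28.70 FPKM in sh-IUR1 libraries. SESN1 encodes sestrin 1, which restrains mTORC1, and SESN1 (chr6:108984309-109094846) was at 5.38, 5.93 and 5.14 FPKM in sh-luc and at 6.07, 6.23 and 5.54 FPKM in sh-IUR1 libraries. For SESN1 only sh-luc r1 lay inside the range of the sh-IUR1 libraries. TP53INP1 (chr8:94925972-94949378), a stress protein of autophagy and cell death, was at 0.95, 1.12 and 0.81 FPKM in sh-luc and at 1.03, 1.08 and 1.09 FPKM in sh-IUR1 libraries. Its highest value was that of sh-luc r1. The log2 fold changes were 0.075 ± 0.069 for FDXR, 0.10 ± 0.085 for SESN1 and 0.079 ± 0.083 for TP53INP1 (± standard error), each with an adjusted p of 0.930 from limma. The 95% intervals ran from -0.080 to 0.23 for FDXR, from -0.089 to 0.29 for SESN1 and from -0.11 to 0.26 for TP53INP1. The value of FDXR was 0.038 without the unnumbered sh-luc library, 0.032 without sh-IUR1 r1 and 0.11 without sh-IUR1 r2. That of SESN1 was 0.062 without sh-luc r2 and 0.052 with quantile normalization. That of TP53INP1 was 0.023 without sh-luc r2, 0.14 without sh-luc r1, 0.030 with quantile normalization and 0.15 with a pseudocount of 0.1 FPKM. The value of TP53INP1 understates a change of FPKM, since 1 FPKM was added before taking logarithms.

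ZMAT3 encodes an RNA-binding zinc finger protein that acts on splicing. ZMAT3 (chr3:179017223-179072513) was at 3.29, 2.79 and 2.46 FPKM in sh-luc and at 2.64, 2.16 and 2.81 FPKM in sh-IUR1 libraries. ZMAT3 was the only one of the 10 genes with a negative log2 fold change, -0.12 (standard error 0.11, 95% interval from -0.36 to 0.12, adjusted p = 0.930 from limma). It was also the only one whose highest value was that of the unnumbered sh-luc library, at 1.25 times the mean of the other sh-luc libraries. Without that library its log2 fold change was -0.039, and it was -0.041 without sh-IUR1 r1 and -0.19 without sh-luc r2. ZMAT3, with the exact match to the consensus in intron 1, had a mean of 2.69 FPKM, and of the 10 genes TP53INP1 alone was lower.

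**Figure D3:**
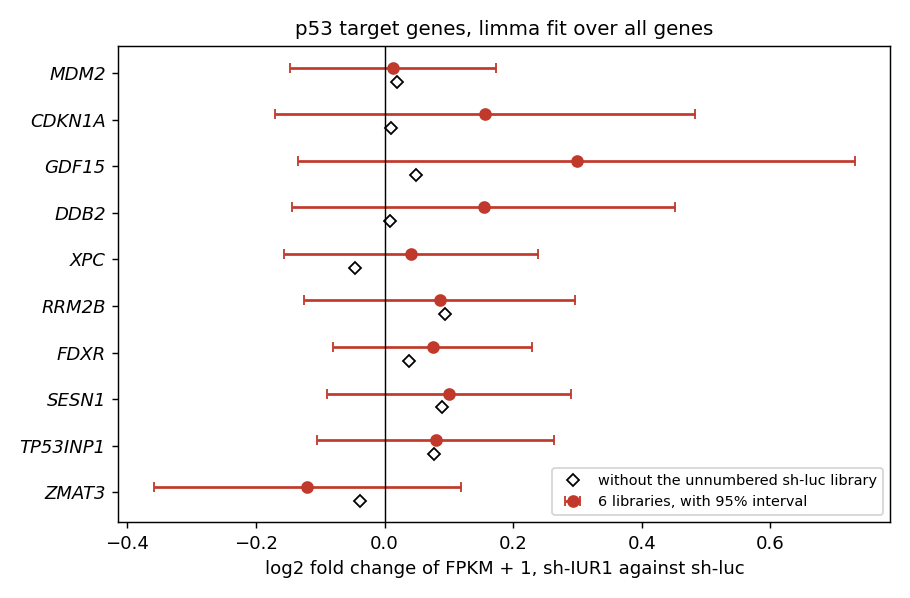
Log2 fold change of FPKM + 1 between sh-IUR1 and sh-luc for each gene, with the 95% interval from the limma fit of 6 libraries (red) and the value without the unnumbered sh-luc library (open diamonds). Every interval contains 0, and the values of GDF15, CDKN1A and DDB2 fall from 0.30, 0.16 and 0.15 to 0.049, 0.0097 and 0.0085.

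The library to library pattern differed among the 10 genes. On the log2(FPKM + 1) scale, the unnumbered sh-luc library deviated from the mean of 6 libraries by -0.65 for GDF15, -0.37 for CDKN1A, -0.37 for DDB2 and -0.20 for XPC. The mean deviation of the 24 stress genes in that library was -0.81. In the same library MDM2 deviated by 0.0070 and ZMAT3 by 0.22. The highest value was that of sh-IUR1 r1 for GDF15, CDKN1A, DDB2, FDXR and SESN1, 5 of the 10 genes, as for 19 of 24 stress genes and 25.9% of all genes tested. ZMAT3, RRM2B, MDM2, XPC and TP53INP1 did not share this order. In sh-IUR1 r1 ZMAT3, RRM2B and MDM2 were below their own mean, by -0.22, -0.10 and -0.043. XPC was at -0.001 and TP53INP1 at 0.049 in that library.

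**Figure D4:**
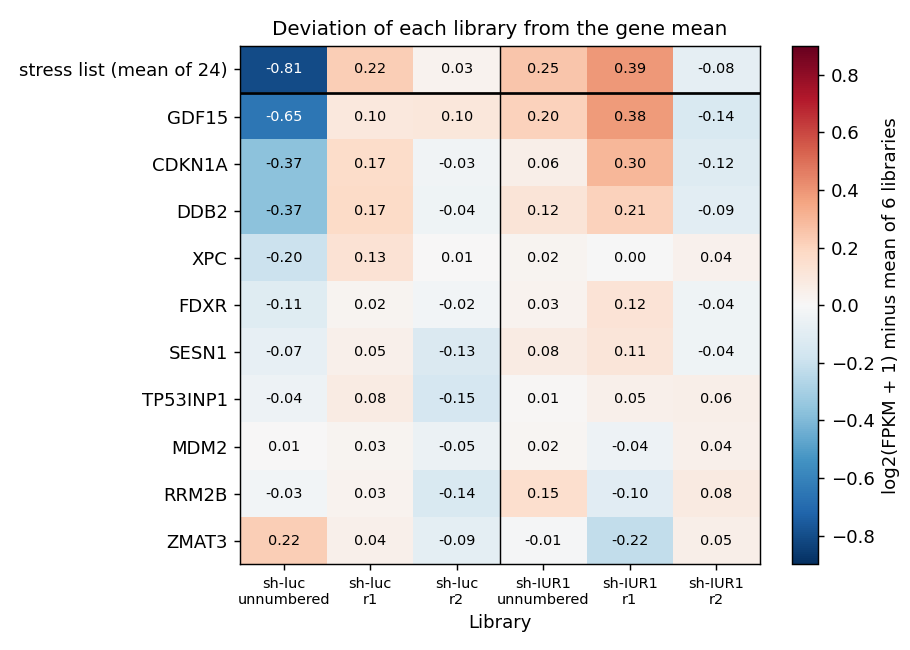
Deviation of log2(FPKM + 1) in each library from the mean of the 6 libraries, for the 10 genes and, in the top row, for the mean of 24 integrated stress response genes. The unnumbered sh-luc library is at -0.81 for the stress genes and at -0.65 for GDF15, and it is at 0.22 for ZMAT3.

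Likeness over the libraries was ranked among 10631 genes whose mean reached 1 FPKM. Those most like MDM2 were KIDINS220, CCDC186 and ZNF320 (Pearson's r of log2(FPKM + 1) 0.990, 0.984 and 0.982). R3HDM2 and GDF11 led for CDKN1A (r of 0.998 and 0.997), and those most like GDF15 were ARFRP1, SHMT2 and SSBP3 (r of 0.998 each). SHMT2, a mitochondrial serine enzyme, is on the stress list. An r above 0.95 was reached by 36 genes for MDM2, 514 genes for CDKN1A and 696 genes for GDF15. All these values come from the same 6 libraries, and the unnumbered sh-luc library was the lowest for CDKN1A and GDF15, so they describe the libraries only.

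Paralogs and partners of the 10 genes gave levels to set beside them, on the FPKM scale. MDM4, the relative of MDM2 that blocks the transcriptional activity of p53, was below MDM2 in every library, at 0.498 to 0.578 times its level. MDM4 was at 5.28, 5.92 and 5.23 FPKM in sh-luc and at 5.08, 4.99 and 5.20 FPKM in sh-IUR1 libraries. These groups did not overlap, but the log2 fold change of MDM4 was -0.087 with a standard error of 0.080 (limma, adjusted p = 0.930). The p21 relatives CDKN1B (p27) and CDKN1C (p57) were 2.77 to 3.64 and 2.41 to 4.26 times as high as CDKN1A. CDKN1B had a mean of 19.3 ± 2.94 FPKM in sh-luc and 20.7 ± 0.829 FPKM in sh-IUR1 cells, and CDKN1C 18.9 ± 0.425 and 18.7 ± 0.676 FPKM (SD, n = 3). RRM2, the S-phase counterpart of RRM2B, was 16.9 to 23.5 times as high as RRM2B. SESN2, the sestrin that responds to the integrated stress response, ranged from 26.23 FPKM in the unnumbered sh-luc library to 98.54 FPKM in sh-IUR1 r1, and SESN1 from 5.14 to 6.23 FPKM over the 6 libraries. TP53INP2 was 3.02 to 4.05 times as high as TP53INP1.

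By RNA level, the genes of protein partners were mostly higher than the p53 targets, and protein was not measured. DDB1, which binds DDB2 in the damage-sensing complex, was 11.9 to 16.9 times as high as DDB2. RAD23B, which stabilizes XPC, was 4 to 5.04 times as high as XPC. FDX2, a ferredoxin, was close to FDXR, at 0.958 to 1.21 times its level. PCNA, the replication clamp bound by p21, was at 185.33, 159.98 and 164.84 FPKM in sh-luc and at 155.32, 136.58 and 158.74 FPKM in sh-IUR1 libraries. All 3 sh-IUR1 values were below those of sh-luc, and the log2 fold change was -0.18 (limma, unadjusted p = 0.0446, adjusted p = 0.930). Without the unnumbered sh-luc library, where PCNA was highest, it was -0.11 (limma, unadjusted p = 0.126), and without sh-IUR1 r1 it was also -0.11. Over all 6 libraries PCNA was the only gene of this list with an unadjusted p under 0.05. Of its 20 genes 18 were tested, 9 with a positive (50%, against 58% of all genes) and 9 with a negative log2 fold change. The groups did not overlap for 2 of the 18, MDM4 and PCNA, against 7.07% of all genes.

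**Figure D5:**
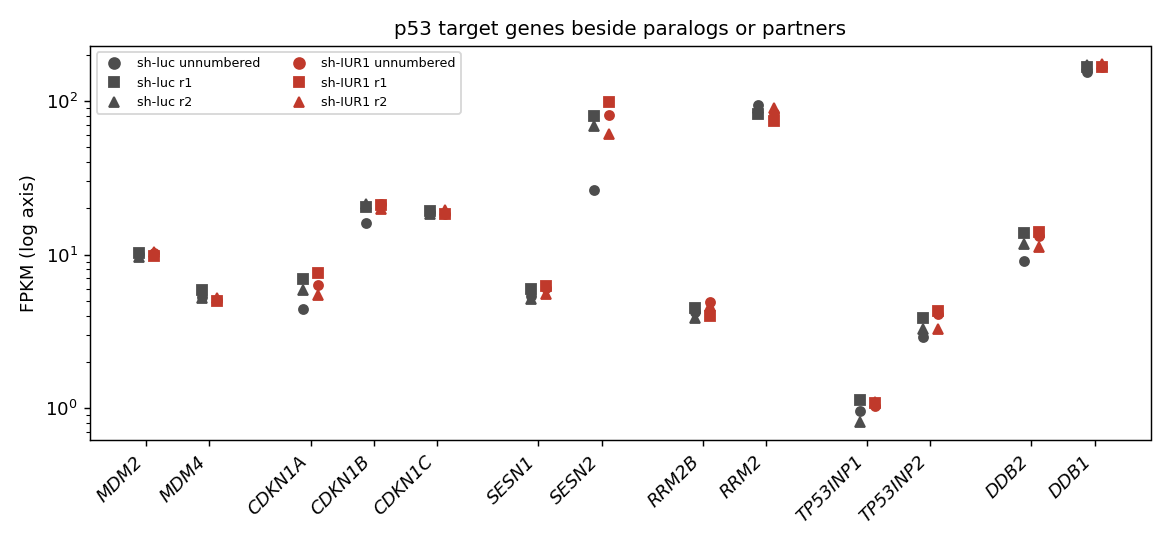
FPKM in each library (log axis) of 5 p53 target genes beside paralogs, and of DDB2 beside its partner DDB1. RRM2 lies 16.9 to 23.5 times above RRM2B, MDM4 lies below MDM2 in every library, and SESN2 spreads from 26.23 to 98.54 FPKM.

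TP63 and TP73, transcription factors of the p53 family, were at 0.300 ± 0.0700 and 3.94 ± 0.131 FPKM in sh-luc and at 0.327 ± 0.0551 and 3.92 ± 0.322 FPKM in sh-IUR1 cells (SD, n = 3). Among upstream regulators, USP7, which deubiquitinates MDM2 and p53, had a log2 fold change of -0.021, the phosphatase PPM1D of 0.015 and the damage kinase ATM of 0.10. Of 25 listed regulators 24 were tested, and 14 had a positive log2 fold change (58.3%, against 58% of all genes). At an unadjusted p under 0.05 there were 0 of the 24, and 2.65% of all genes. Groups without overlap were found for 2 of the 24, MDM4 and USP10, both lower in sh-IUR1, against 7.07% of all genes.

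A further 54 p53 targets were listed, of which 44 were tested. Of these 30 (68.2%, against 58% of all genes) had a positive and 14 a negative log2 fold change. Their median was 0.033 (0.019 without the unnumbered sh-luc library), and 0 had an unadjusted p under 0.05. The groups did not overlap for 1 of the 44, FBXO22, against 7.07% of all genes. Its means were 16.4 ± 0.599 FPKM in sh-luc and 17.9 ± 0.229 FPKM in sh-IUR1 cells (SD, n = 3). The most abundant were GADD45A, a growth arrest and DNA damage gene, at 156 ± 31.3 FPKM in sh-luc and 171 ± 16.2 FPKM in sh-IUR1 cells, PRKAB1 at 96.7 ± 8.46 and 96.6 ± 3.11 FPKM, and CCNG1 at 90.3 ± 10.6 and 86.9 ± 8.32 FPKM (SD, n = 3). The smallest unadjusted p-values were those of DCP1B (0.0812), NINJ1 (0.0988) and ORAI3 (0.102), all with positive log2 fold changes and an adjusted p of 0.930 from limma. As for 5 of the 10 genes above, the lowest value was that of the unnumbered sh-luc library for 22 of the 44, against 38.4% of all genes.

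Genes that p53 represses through p21 and the DREAM complex, mostly of the G2 phase and mitosis, were listed as well. Protein and activity of p21 were not measured, so the list is no readout of p21. By flow cytometry the study found no significant change of the cell cycle on knockdown. All 21 listed genes were tested, 7 with a positive (33.3%, against 58% of all genes) and 14 with a negative log2 fold change. Their median was -0.038. CCNB1 (cyclin B1) was at 104.75, 79.18 and 88.63 FPKM in sh-luc and at 74.73, 68.67 and 84.95 FPKM in sh-IUR1 libraries, and the groups overlapped (limma, unadjusted p = 0.0419, adjusted p = 0.930). For CCNB1 the log2 fold change was -0.25, and without the unnumbered sh-luc library, its highest, it was -0.14 (limma, unadjusted p = 0.128). Over all 6 libraries CCNB1 was the only gene of the list with an unadjusted p under 0.05. PLK1 followed with 94.4 ± 6.36 FPKM in sh-luc and 84.9 ± 4.26 FPKM in sh-IUR1 cells, and BIRC5 with 66.2 ± 3.31 and 61.2 ± 4.30 FPKM. CDC20 and MYBL2, with PLK1 among the most abundant of the list, were at 145 ± 7.92 and 89.8 ± 6.64 FPKM in sh-luc and at 145 ± 2.92 and 92.9 ± 1.89 FPKM in sh-IUR1 cells (SD, n = 3 throughout). The groups did not overlap for 1 of the 21, PRC1, against 7.07% of all genes, and its log2 fold change was -0.038. The unnumbered sh-luc library held the highest value of 12 of the 21 genes, and of 2962 of 12276 genes tested.

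The size of the differences in the stress list depended on that library. All 24 tested genes had a positive log2 fold change (against 58% of all genes), with a median of 0.35. Without the unnumbered sh-luc library 23 of the 24 were still positive, against 6467 of 12276 over all genes. The median in that fit was 0.053 for the stress list and 0.0047 over all genes. DDIT4, ATF4 and SLC3A2 were the most abundant. DDIT4 was at 169.38, 599.01 and 492.28 FPKM in sh-luc and at 550.55, 620.44 and 478.89 FPKM in sh-IUR1 libraries. ATF4, the transcription factor of the response, was at 279 ± 23.1 FPKM in sh-luc and 288 ± 9.07 FPKM in sh-IUR1 cells, and SLC3A2 at 242 ± 46.4 and 274 ± 32.1 FPKM (SD, n = 3). The smallest unadjusted p-values of the list were 0.0650 for SLC7A11, 0.0875 for CTH and 0.103 for DDIT3, each with an adjusted p of 0.930 from limma.

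The identity of the cells was read from erythroid markers of K562. All 12 listed were tested, and their summed FPKM was between 5365 and 6904 in sh-luc and between 5258 and 5858 in sh-IUR1 libraries, highest in the unnumbered sh-luc library. Of the 12, 11 had a negative and 1 (8.33%, against 58% of all genes) a positive log2 fold change, with a median of -0.081. Without the unnumbered sh-luc library the median was -0.033 and 4 of the 12 were positive. That library held the highest value of 8 of the 12, and of 2962 of 12276 genes tested. The groups did not overlap for 1 of the 12, lower in sh-IUR1, against 7.07% of all genes. Of markers of other cell types, the tested lymphoid genes summed to at most 6.27 FPKM. LYZ of the monocyte list and EPCAM of the epithelial list accounted for nearly all of theirs, with sums of up to 119 and 47.9 FPKM. The part of these markers in the results was not tested. Pearson's r of log2(FPKM + 1) between pairs of libraries was between 0.991 and 0.998, and listed FPKM summed to between 579820 and 606240 per library, which is no sequencing depth.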

How the data were processed

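RNA-seq of K562 cells was analysed in 2 groups of 3 libraries. The authors trimmed and masked the reads, mapped them to hg38 and computed RPKM with SAMtools 0.1.19. The aligner and annotation are not given in the sources used here. The authors deposited FPKM with 2 decimals. They also deposited a score (the FPKM standardized over the 6 libraries), a cluster number and a fraction (cluster membership), which were not used. The table holds 0 genes with a standard deviation under 0.05 FPKM, so genes that varied less are absent from it. Percentiles and shares of all genes refer to this table, and listed genes that it lacks could not be tested.

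Entrez identifiers were matched to RefSeq symbols (12363 of 12486). Genes averaging 0.1 FPKM or more (12276) entered a limma 3.58.1 model of log2(FPKM + 1) (eBayes with a trend, R 4.3.3), with Benjamini-Hochberg adjustment over all genes. The model was checked first on simulated data with independent noise for each gene and library. Such data hold no library that deviates over many genes at once, so the check does not cover that case. Depth is unknown: at best 64.3% of the low values of single-exon genes in any library came within 0.15 of whole fragments, so no count test or interval was made. The named genes were the 10 targets, chosen paralogs, partners and regulators, and of each other list the 3 most abundant and the 3 with the smallest p-value. Genes, lists and tests were chosen with earlier results of these data known. FBXO22, USP10, PRC1, LYZ and EPCAM were named after their values were seen. A planned comparison of protein sequences was not made. Some genes that the naming rule covers are not reported here. The element search within 5000 bases was added to the promoter search after the data had been seen. The alternatives changed the pseudocount (0.1), the filter (none, or 1 FPKM), the scaling (quantile normalization or median ratios), the variance model (no trend, or no moderation) and the replicate block, or left out each library. Python 3.11.15, numpy 2.4.6, pandas 2.3.3 and matplotlib 3.10.9 were used.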

Additional observations from a re-analysis of the deposited data

How the results depend on the processing

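Of the 10 p53 targets, 0 were called and 0 had an unadjusted p under 0.05 under any of the 14 alternatives, and their adjusted p-values from limma or the unmoderated model were 0.667 or higher. A positive log2 fold change was found for 8 or 9 of the 10 genes, and their median was between 0.029 (without the unnumbered sh-luc library) and 0.13 (without sh-luc r1). Of 601 log2 fold changes of 43 named genes under alternatives, 570 kept their direction and 31 reversed. With median-ratio scaling the value was -0.0060 for MDM2, -0.013 for RAD23B, -0.0036 for PPM1D, -0.019 for PRKAB1 and -0.020 for CDC20. With quantile normalization it was -0.014 for MDM2 and -0.023 for PPM1D. Between libraries of the same number, deviations from the group means correlated at 0.39 for r1, -0.34 for r2 and 0.04 for the unnumbered pair. Differently numbered libraries were not compared, so these values cannot decide whether the numbers mark pairs. The replicate block called 0 genes, gave 533 genes at an unadjusted p under 0.05 against 325, and changed no call among the 10. Each library left out in turn gave between 158 genes (without the unnumbered sh-IUR1 library) and 856 (sh-luc r1 left out), with 711 when sh-IUR1 r2 was left out. Over these 6 fits the log2 fold change ranged from -0.046 to 0.12 for XPC, -0.010 to 0.038 for MDM2, -0.018 to 0.18 for CDKN1B, -0.037 to 0.0085 for CDKN1C, -0.00030 to 0.080 for DDB1, -0.0023 to 0.014 for RAD23B, -0.0042 to 0.074 for TP63 and -0.057 to 0.037 for TP73. It ranged from -0.041 to 0.0022 for USP7, -0.019 to 0.047 for PPM1D, -0.028 to 0.26 for GADD45A, -0.072 to 0.042 for PRKAB1, -0.14 to 0.025 for CCNG1, -0.039 to 0.040 for CDC20, -0.0067 to 0.099 for MYBL2 and -0.022 to 0.090 for ATF4. Without reversal it ranged from 0.049 to 0.44 for GDF15, 0.0097 to 0.28 for CDKN1A, 0.0085 to 0.28 for DDB2, 0.031 to 0.16 for RRM2B, 0.032 to 0.11 for FDXR, 0.062 to 0.15 for SESN1, 0.023 to 0.14 for TP53INP1 and -0.19 to -0.039 for ZMAT3. Other causes of the reversals than the setting or the library left out were not tested. Genes such as TP63 and TP53INP1 are limited by their low FPKM.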
